A study of Drosophila melanogaster with 24 samples.

Results

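Genes that differ between female and male Drosophila melanogaster were followed in su(Hw) mutant larvae and wing discs: the yolk protein genes Yp1, Yp2 and Yp3, the dosage compensation RNA genes lncRNA:roX1 and lncRNA:roX2, and the testis genes Mst87F and Mst98Ca. The members were taken by gene symbol from the probe annotation, as a look at the share of each sex in the mutant samples and in the wild-type pool. Of the 7 listed genes, 5 were annotated on 6 of the 14444 probes analysed, and no probe carried the names lncRNA:roX1 or lncRNA:roX2 in the annotation used here. Of the 6 probes, 4 had 1 gene symbol (Yp1, Yp2, Yp3 and Mst87F). The other 2 each carried a pair of symbols, Yp3 with Rtc1 and Mst98Ca with Mst98Cb, so their values cannot be given to either gene alone.

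RNA of each genotype was hybridised on 2-colour long-oligonucleotide arrays against a wild-type (Oregon R) RNA pool of the same tissue. The null animals, su(Hw)/Df, carried the null allele su(Hw)v with the transgene P[CaS X/K5.3] on 1 copy of chromosome 3 and the deletion Df(3R)ED5644 on the other. The su(Hw)/+ animals carried that same su(Hw)v chromosome, transgene included, over an Oregon R chromosome, and the Df/+ animals carried Df(3R)ED5644 over Oregon R, so each heterozygote shares 1 chromosome with the null. There were 4 independent replicates of each genotype and tissue, 2 per dye orientation, in whole white pre-pupal larvae (10 or 20 non-Tubby animals per extraction, directly labelled) and in wing imaginal discs (6 discs per extraction in the labels, whereas the study's methods give another number of discs and amplified RNA). The labels give no sex for the animals collected or for those that made the larval pool of 18 collections and the disc pool of 20 extractions. Each pool was 1 RNA, so its own spread is not in any test against it, and all comparisons with it share that RNA.

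All values below are log2 ratios of the genotype over the pool, where 0 is an equal level, and they show differences from the pool, not levels. Across arrays 9110 to 11673 probes had a value in larvae and 4972 to 11157 in discs, and 3 disc arrays (replicate 2 of su(Hw)/Df, replicate 2 of su(Hw)/+ and replicate 4 of Df/+) had values for under 50% of probes. The su(Hw) probe, the targeted gene, averaged -2.92 for su(Hw)/Df, -0.54 for su(Hw)/+ and -0.33 for Df/+ larvae, and -2.28, -0.36 and -0.65 in discs of the same genotypes. A genotype was compared with the pool, or with another genotype, in limma with Benjamini-Hochberg adjustment over all probes measured on 3 or more arrays of every genotype involved, and a difference was called at an adjusted p under 0.05.

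In adult females, the fat body and the follicle cells of the ovary make the yolk proteins, which are secreted and taken up by the growing oocytes. Expression in the fat body depends on doublesex, whose female product raises and whose male product lowers transcription of the Yp genes. In males the roX RNAs, together with the MSL proteins, coat the single X chromosome and raise its transcription. Mst87F, Mst98Ca and Mst98Cb belong to a family of testis genes whose proteins, rich in repeats of cysteine, glycine and proline, are found in the tail of the sperm. Their RNAs are made in spermatocytes, stored, and translated only later in spermatids, and the testes of late larvae already hold spermatocytes. Yp1, Yp2 and Yp3 lie on the X chromosome, and Mst87F, Mst98Ca and Mst98Cb lie on arm 3R.

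The testis genes were lowest in su(Hw)/+ larvae. Mst87F fell 3.00-fold below the pool in su(Hw)/+ larvae and 1.61-fold below it in Df/+ larvae, and its difference did not pass the test in su(Hw)/Df larvae. The probe shared by Mst98Ca and Mst98Cb fell 2.11-fold below the pool in su(Hw)/+ larvae and did not pass in su(Hw)/Df or Df/+ larvae. The probe of Yp3 alone rose 3.81-fold over the pool in su(Hw)/Df larvae, where neither Mst probe passed, and 1.90-fold over it in su(Hw)/+ larvae. The second Yp3 probe, shared with Rtc1, did not pass in su(Hw)/Df or Df/+ larvae and could not be tested in su(Hw)/+.

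Mst87F had log2 ratios of -0.65, -0.37, -0.25 and 0.00 on the su(Hw)/Df larval arrays (replicates 1 to 4), -1.39, -1.34, -2.19 and -1.42 on the su(Hw)/+ arrays and -0.89, -0.27, -0.65 and -0.94 on the Df/+ arrays. The 4 su(Hw)/+ arrays lay below every array of su(Hw)/Df and of Df/+, while su(Hw)/Df and Df/+ overlapped. The mean was -0.32 ± 0.27 for su(Hw)/Df (SD, n = 4 each, limma adjusted p = 0.168), -1.59 ± 0.40 for su(Hw)/+ (adjusted p = 4.5e-05) and -0.69 ± 0.30 in Df/+ (adjusted p = 0.0112). The call in Df/+ was lost without Df/+ replicate 4 (-0.60, adjusted p = 0.052), and the call in su(Hw)/+ held in 20 of 20 settings, which vary the processing or leave out 1 array at a time. These settings are not independent: they include the main fit and the median of spots, which equals it here. For a mean against the pool, leaving out an array of another genotype alters only the estimate of the variance. In whole-larva RNA, fewer testis cells and less testis RNA per cell cannot be told apart.

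The probe for Mst98Ca and Mst98Cb had log2 ratios of -0.49, -0.85, 0.17 and 0.10 in su(Hw)/Df larvae, -1.22, -0.76, -1.39 and -0.95 in su(Hw)/+ larvae and -0.40, 0.32, 0.59 and -0.77 in Df/+ larvae. All 4 su(Hw)/+ arrays were below 0, whereas su(Hw)/Df and Df/+ each had 2 arrays above and 2 below it, and the 3 genotypes overlapped. The mean was -0.27 ± 0.49 for su(Hw)/Df (adjusted p = 0.403), -1.08 ± 0.28 for su(Hw)/+ (adjusted p = 0.00322, called in 20 of 20 settings) and -0.06 ± 0.63 in Df/+ (adjusted p = 0.873). A separate probe annotated to Mst98Cb alone averaged -0.36 for su(Hw)/Df, -0.60 for su(Hw)/+ and 0.06 for Df/+ larvae, with an adjusted p of 0.0284 in su(Hw)/+ and none called in the other genotypes.

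The Yp3 probe with 1 symbol had log2 ratios of 2.47, 1.83, 2.39 and 1.03 in su(Hw)/Df larvae (replicates 1 to 4), 0.90, 1.53 and 0.35 in su(Hw)/+ larvae (replicates 1, 3 and 4) and 0.86, 0.00 and 0.34 in Df/+ larvae (replicates 1 to 3). All 10 values were above 0, and every su(Hw)/Df array lay above every Df/+ array, with overlap between su(Hw)/Df and su(Hw)/+. The mean was 1.93 ± 0.66 for su(Hw)/Df (n = 4, limma adjusted p = 0.000284, called in 20 of 20 settings), 0.93 ± 0.59 for su(Hw)/+ (n = 3, adjusted p = 0.0332) and 0.40 ± 0.43 in Df/+ (n = 3, adjusted p = 0.359). The su(Hw)/+ call was not made without moderation of the variance (adjusted p = 0.0857). Arrays with the genotype in Cy3 gave higher values than those with it in Cy5, at 2.43 against 1.43 in su(Hw)/Df, 1.22 against 0.35 in su(Hw)/+ and 0.60 against 0.00 in Df/+. These are means, except that the Cy5 value was 1 array in su(Hw)/+ (replicate 4) and in Df/+ (replicate 2). The Yp3 means of the heterozygotes therefore weight Cy3 over Cy5, and that of su(Hw)/Df does not.

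The second Yp3 probe, whose annotation also names Rtc1, a gene for an RNA cyclase family protein, did not follow the first. It had log2 ratios of 0.87, -0.23 and 0.92 in su(Hw)/Df larvae (replicates 1 to 3), 0.10 on the single su(Hw)/+ array with a value (replicate 4) and 0.65, 0.45, 0.73 and 0.08 in Df/+ larvae. The means of 0.52 ± 0.65 for su(Hw)/Df (n = 3, adjusted p = 0.134) and 0.48 ± 0.29 in Df/+ (n = 4, adjusted p = 0.127) did not pass the test, and su(Hw)/+ could not be tested. The difference between su(Hw)/Df and Df/+ was 0.04 (SE 0.31, adjusted p = 0.981), against 1.53 (SE 0.38, adjusted p = 0.0687) for the probe of Yp3 alone.

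The other yolk protein genes had few larval values. Yp1 had 1 value in 12 arrays, -0.30 in Df/+ replicate 4. Yp2 had 6 values: -0.27 and 0.66 in su(Hw)/Df (replicates 2 and 3), 0.87 and -0.32 in su(Hw)/+ (replicates 3 and 4) and 0.82 and -0.74 in Df/+ (replicates 1 and 4). In each genotype the positive Yp2 value came from an array with the genotype in Cy3 and the negative one from an array with it in Cy5, and no genotype had the 3 values needed for a test.

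**Figure D1:**
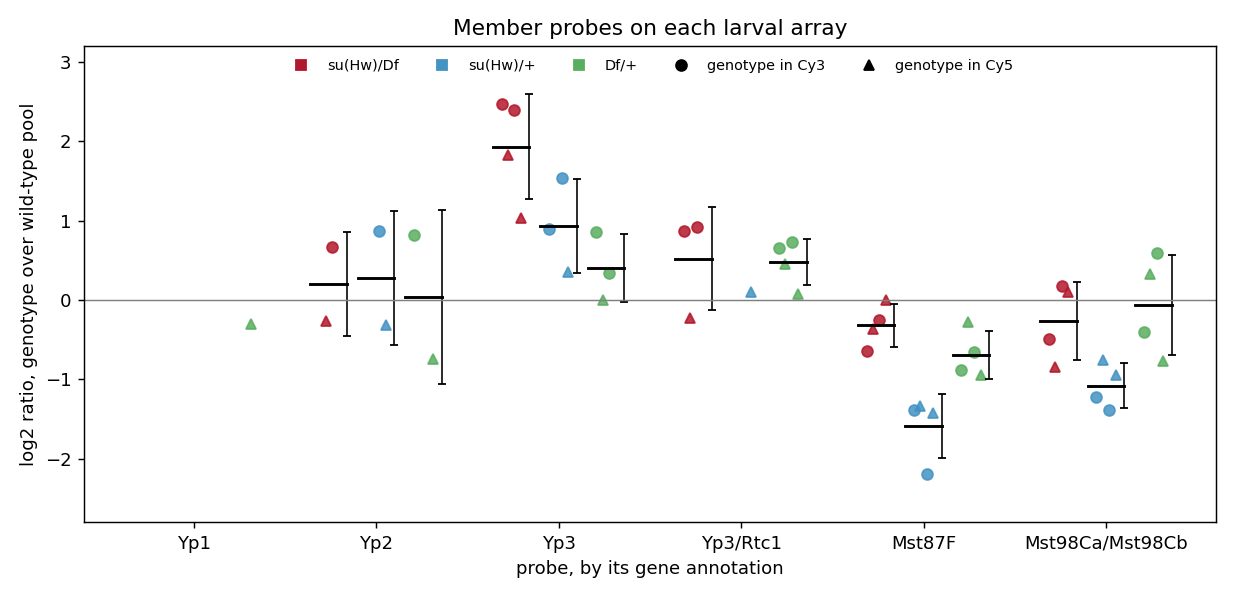
Log2 ratio over the wild-type pool (y axis) of the 6 member probes (x axis) on each larval array, in red for su(Hw)/Df, blue for su(Hw)/+ and green for Df/+, with circles for the genotype in Cy3 and triangles for Cy5; black lines are means and bars are SD where 2 or more arrays had a value. Yp3 was highest in su(Hw)/Df (mean 1.93) and Mst87F lowest in su(Hw)/+ (mean -1.59).

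Against the pool, 1 of 4 member probes tested was called in su(Hw)/Df larvae (Yp3, higher), where 27.7% of all 9554 probes tested were called. In su(Hw)/+ larvae 3 of 3 were called (Yp3 higher, Mst87F and the Mst98Ca and Mst98Cb probe lower), where 28.3% of all 8907 probes were called. In Df/+ larvae 1 of 4 was called (Mst87F, lower), where 19.7% of all 9699 probes were called. Calls against the pool were thus common over the array. Among probes with 4 values, all 4 arrays lay below 0 for 23.8% in su(Hw)/+ and 23.5% in Df/+ larvae.

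Between genotypes the pool cancels. Mst87F was higher in su(Hw)/Df than in su(Hw)/+ larvae by 1.27 (SE 0.23, limma adjusted p = 0.0104, 20 of 20 settings), 2.41-fold, and it was the 1 call among 3 member probes tested, where 1.98% of all 8431 probes were called and 0.629% were called higher. All 4 su(Hw)/Df arrays lay above all 4 su(Hw)/+ arrays, which held for 4.23% of the 6853 probes with 8 values. In Df/+ larvae Mst87F also lay above su(Hw)/+ on every array (3.47% of 6717 probes), but the difference of 0.90 (SE 0.23) had an adjusted p of 0.144. For this comparison 0 of 3 member probes were called in limma, where 0.272% of all 8464 probes were called and 944 fell under 0.05 before adjustment, Mst87F and the Mst98Ca and Mst98Cb probe among them. The Mst98Ca and Mst98Cb probe differed by 1.02 (SE 0.31, adjusted p = 0.221) between Df/+ and su(Hw)/+ and by 0.81 (SE 0.31, adjusted p = 0.229) between su(Hw)/Df and su(Hw)/+.

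Set against the mean of both heterozygotes, 1 of 3 member probes was called in su(Hw)/Df larvae, where 2.84% of all 8197 probes were called. This was Mst87F, higher by 0.82 (SE 0.20, adjusted p = 0.0422), with an exact 2-sided permutation p of 0.0263 over 495 splits of the arrays. The permutation p-values given here are for 1 probe and are not adjusted. Their splits treat the arrays of both heterozygotes as alike and take no account of the dye. The call held in 10 of 20 settings. It was lost with each array centred on its median (adjusted p = 0.0975), with a minimum of 2 values per genotype (adjusted p = 0.0559), without moderation (adjusted p = 0.0798), and without any 1 of 7 arrays (su(Hw)/Df replicates 2, 3 and 4, su(Hw)/+ replicate 4 and Df/+ replicates 1, 3 and 4; adjusted p = 0.0508 to 0.0962). The mean of the heterozygotes lay between -1.59 for su(Hw)/+ and -0.69 for Df/+, and against Df/+ alone Mst87F differed by 0.37 (SE 0.23, adjusted p = 0.51).

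Yp3 was 1.27 higher in su(Hw)/Df than in the heterozygotes (SE 0.32), which missed the threshold at a limma adjusted p of 0.0608. The exact 2-sided permutation p, unadjusted, was 0.019 over 210 splits. Yp3 was called in 4 of the 13 settings that could test it (limma adjusted p = 0.00319 to 0.159). These included centring each array on its median (1.31, adjusted p = 0.0183), the dye as a covariate (1.41, adjusted p = 0.00319) and leaving out su(Hw)/Df replicate 4 (1.56, adjusted p = 0.0164). Against su(Hw)/+ the Yp3 difference was 1.00 (SE 0.38, adjusted p = 0.239), which passed the test only with the dye as a covariate (1.14, adjusted p = 0.028). Against Df/+ it was 1.53, and 0 of 4 member probes were called there in limma, where 1.91% of all 8887 probes were called and 1318 fell under 0.05 before adjustment, Yp3 among them. The arrays of su(Hw)/Df lay wholly above those of Df/+ for 5.89% of these 8887 probes. The Yp3 difference from Df/+ was called in 4 of 16 settings (limma adjusted p = 0.00432 to 0.171), with the lowest adjusted p when the dye was a covariate. Yp3 was ordered su(Hw)/Df, su(Hw)/+, Df/+ from high to low, and without the dye in the fit no step between neighbours passed the test (Df/+ minus su(Hw)/+ was -0.53, SE 0.41, adjusted p = 0.719).

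A wider list of 43 genes of the testis and of spermatogenesis was also read in larvae. Of its 34 genes with a probe, 27 had enough values for a test in su(Hw)/Df, 21 for su(Hw)/+ and 24 for Df/+. Of these, 9 fell and 0 rose in su(Hw)/Df, 15 fell and 0 rose in su(Hw)/+, and 7 fell and 0 rose in Df/+. The list medians were -0.36, -0.81 and -0.29 in that order of genotypes, beside 0.03, 0.08 and -0.02 for all probes tested, of which 13.2%, 13.7% and 10.3% fell. Among the 20 genes tested in all 3 genotypes, 18 had their lowest mean in su(Hw)/+, 5 fell in all 3 genotypes and 6 fell in su(Hw)/+ alone. The shares of all probes with these patterns were not counted, and the 3 comparisons share 1 pool, so these counts have no background here. A call in 1 genotype and not in another does not show that they differ. Between genotypes, Hsp60C was the 1 of 20 list genes called in su(Hw)/Df against su(Hw)/+, where 1.98% of all 8431 probes were called. In su(Hw)/Df against both heterozygotes 0 of 20 were called in limma, with 1 at an unadjusted p under 0.05. Of all 8197 probes, 2.84% were called there and 1328 fell under 0.05 before adjustment. In Df/+ against su(Hw)/+ 0 of 20 were called in limma, with 8 at an unadjusted p under 0.05. Of all 8464 probes, 0.272% were called there and 944 fell under 0.05 before adjustment. The list medians of these differences were 0.39, 0.17 and 0.51.

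Among the genes called, dj (don juan, a protein of the sperm tail) averaged -0.83 for su(Hw)/Df, -1.60 for su(Hw)/+ and -0.73 for Df/+ larvae, and all 3 fell below the pool. The soti gene, needed for sperm individualisation, was low to a like degree in every genotype, at -1.33 ± 0.44 for su(Hw)/Df, -1.56 ± 0.30 for su(Hw)/+ and -1.43 ± 0.31 for Df/+. Mst33A averaged -0.86, -1.44 and -0.97 in the same order and fell in all 3. ProtA, a protamine that packs DNA in the sperm head, averaged -0.52 ± 0.68 in su(Hw)/Df and -0.44 ± 0.56 in Df/+, neither past the test, and fell to -1.49 ± 0.56 in su(Hw)/+.

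The gene bol, whose RNA-binding protein is needed for meiotic entry in the testis, fell in su(Hw)/+ alone (-1.25, adjusted p = 0.000831), with means of -0.53 in su(Hw)/Df and -0.43 in Df/+. The paralogues dj and djl may share signal on their probes, and djl averaged -1.06, -1.18 and -0.62 in su(Hw)/Df, su(Hw)/+ and Df/+. The janB gene averaged -0.53 in su(Hw)/Df and -1.0005 in Df/+, both called, with 2 values in su(Hw)/+. Hsp60C, a mitochondrial chaperonin used in sperm formation, averaged 0.30 ± 0.25 for su(Hw)/Df, -1.03 ± 0.48 for su(Hw)/+ and -0.20 ± 0.52 for Df/+, and su(Hw)/Df exceeded su(Hw)/+ by 1.32 (adjusted p = 0.0296). The testis tubulin gene betaTub85D had positive means of 0.27, 0.20 and 0.41 in the same order, none past the test, and the meiotic phosphatase gene twe had means from -0.07 to 0.12.

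**Figure D2:**
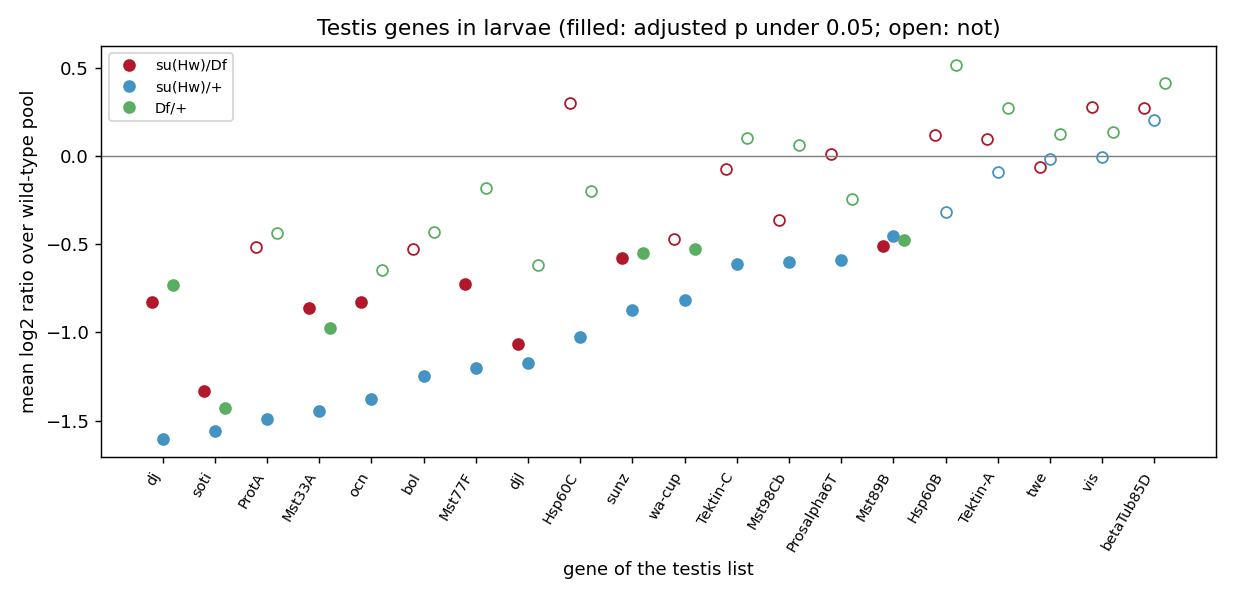
Mean log2 ratio over the wild-type pool (y axis) of the 20 testis genes tested in all 3 larval genotypes (x axis, ordered by su(Hw)/+), in red for su(Hw)/Df, blue for su(Hw)/+ and green for Df/+; filled points had a limma adjusted p under 0.05 and open points did not. In 18 of the 20 genes the su(Hw)/+ point is the lowest. The share of all probes with this order was not counted.

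Array by array, the 16 testis genes with a value on all 12 larval arrays had medians of -0.98, -0.56, -0.40 and -0.04 in su(Hw)/Df (replicates 1 to 4), -1.004, -0.97, -1.60 and -0.78 in su(Hw)/+ and -0.63, -0.01, -0.05 and -0.88 in Df/+. The su(Hw)/+ arrays ranged from -1.60 to -0.78, overlapping the lowest arrays of su(Hw)/Df and of Df/+. Replicates of 1 genotype spanned 0.936 for su(Hw)/Df, 0.820 for su(Hw)/+ and 0.875 for Df/+. The lowest array, su(Hw)/+ replicate 3, was also the lowest for Mst87F and for the Mst98Ca and Mst98Cb probe. The part of testis content in the Mst values was not tested.

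**Figure D3:**
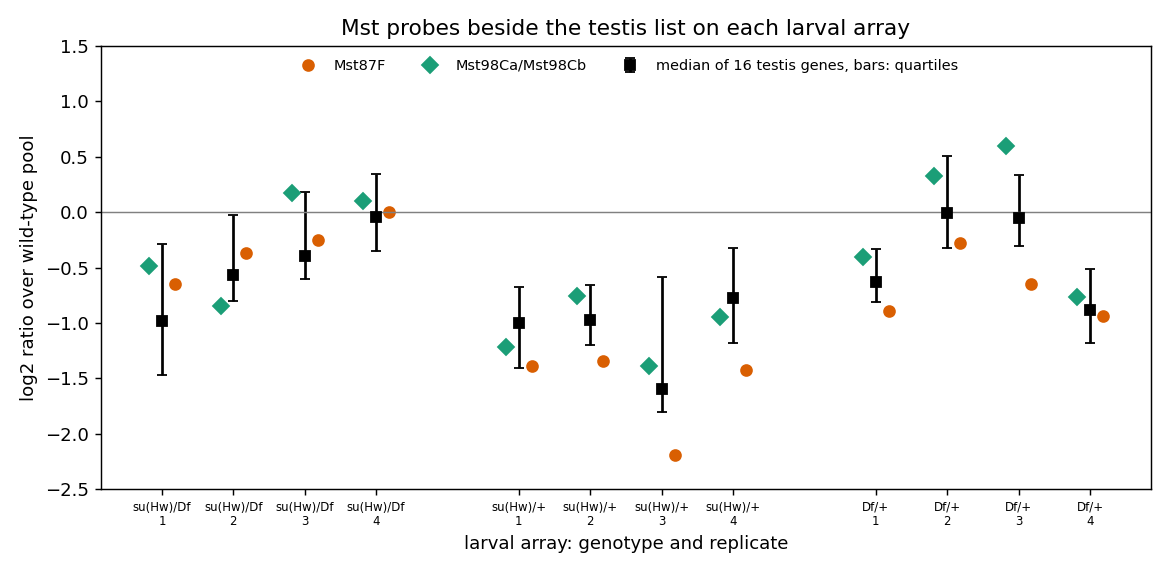
Log2 ratio over the wild-type pool (y axis) of Mst87F (orange circles) and the Mst98Ca and Mst98Cb probe (green diamonds) on each larval array (x axis, genotype and replicate), beside the median of 16 testis genes (black squares, bars over the interquartile range). The 3 measures share their lowest array, su(Hw)/+ replicate 3.

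The genes most like each Mst probe over the 12 larval arrays were found by Pearson's r among probes with 1 symbol and 12 values, as a description. Mst87F was most like CG9016 (r = 0.987), Hsp60C (r = 0.975) and CG10252 (r = 0.969), of 5563 probes compared. The Mst98Ca and Mst98Cb probe was most like CG12861 (r = 0.981), CG32445 (r = 0.98) and Dnaaf6 (r = 0.978), of 5564 compared, and the 2 Mst probes correlated with each other at r = 0.776. CG9016 averaged -0.62, -1.80 and -0.89 in su(Hw)/Df, su(Hw)/+ and Df/+, and CG12861 averaged -0.35, -1.22 and -0.15. The points share the genotype groups, the pool and the dye orientation.

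Genes of the female and male soma and germ line gave few tests. Of 21 female egg genes with a probe, 4 were tested in su(Hw)/Df larvae, 4 in su(Hw)/+ and 3 in Df/+, since the median gene of the list had a value on 3 of 12 arrays. In su(Hw)/Df larvae grk (0.71), which encodes the ligand that sets the axes of the oocyte, and ovo (0.49), a germ line transcription factor, were called higher. In su(Hw)/+ larvae ovo (0.55) and gcl (0.46) were higher and exu (-1.01) was lower, and in Df/+ larvae exu (-0.67) was lower. The list thus had 2 of 4, 3 of 4 and 1 of 3 genes called in su(Hw)/Df, su(Hw)/+ and Df/+. Of all probes tested, 27.7%, 28.3% and 19.7% were called against the pool in that order. The shares of the list were higher but rest on 3 or 4 genes each, too few to set the list apart. The exu gene is also transcribed in the male germ line. In su(Hw)/Df larvae exu averaged 0.06 ± 0.54. Of 14 accessory gland genes with a probe, 1 to 3 were tested in a larval genotype and none was called against the pool, and of 6 Y-linked fertility genes with a probe, 2 were tested, in Df/+ alone, neither of them called.

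The dosage compensation proteins, partners of the roX RNAs, were read beside the members. Of 9 genes with a probe, 7 were tested in each larval genotype and 0 were called in limma against the pool or between genotypes, with 1 of these 49 tests at an unadjusted p under 0.05. That test was msl-3 in su(Hw)/Df against the pool, where 3848 of all 9554 probes tested fell under 0.05. The helicase gene mle averaged 0.13 for su(Hw)/Df, 0.12 for su(Hw)/+ and 0.31 for Df/+ larvae (adjusted p = 0.55, 0.587 and 0.171). The gene msl-3 averaged 0.39, 0.29 and 0.09, none of them called (limma adjusted p = 0.116 in su(Hw)/Df). Among the sex determination genes, tra2, a splicing regulator that acts with tra, fell in su(Hw)/Df larvae (-0.46 ± 0.33) and averaged -0.34 ± 0.15 in su(Hw)/+ and -0.25 ± 0.22 in Df/+. The gene vir, which acts in splicing of Sxl, rose in Df/+ larvae (0.63 ± 0.24) and averaged 0.03 ± 0.38 for su(Hw)/Df and 0.32 ± 0.32 for su(Hw)/+. No other sex determination gene was called among 6 to 7 tested in each larval genotype. The list thus had 1 of 6, 0 of 6 and 1 of 7 genes called in su(Hw)/Df, su(Hw)/+ and Df/+. Of all probes tested, 27.7%, 28.3% and 19.7% were called in that order, so these calls do not set the list apart.

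Probes of X-linked genes lay above those of autosomal genes on 12 of 12 larval arrays, with a difference of medians between 0.08 and 0.18. The mean difference over arrays was 0.11 ± 0.02 for su(Hw)/Df, 0.13 ± 0.04 for su(Hw)/+ and 0.11 ± 0.03 for Df/+ larvae, so that the 3 genotypes overlapped. In wing discs the difference was above 0 on 4 of 12 arrays, between -0.08 and 0.03. In su(Hw)/Df against the heterozygotes the larval medians were 0.01 for 1050 X-linked probes and 0.02 for 5960 autosomal probes.

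Fat body storage genes, made by the larval form of the tissue that later makes yolk protein, were read beside Yp3. All 4 with a probe were tested: 3 rose and 0 fell in su(Hw)/Df larvae (Lsp2 1.20, Fbp2 0.89 and Fbp1 0.54), 3 rose and 0 fell in su(Hw)/+ (Fbp2 1.19, Fbp1 0.69 and Lsp2 0.46), and 1 rose and 0 fell in Df/+ (Lsp2 1.10), beside 27.7%, 28.3% and 19.7% of all probes called in these genotypes. The lipophorin gene apolpp passed in none of them. Yp3, Fbp1 and Fbp2 passed in su(Hw)/Df and su(Hw)/+ and not in Df/+ (Fbp1 -0.20 and Fbp2 0.12 there), whereas Lsp2 rose in all 3. Fbp1 and Fbp2 had higher means in su(Hw)/+ than in su(Hw)/Df, whereas Yp3 had its higher mean in su(Hw)/Df. None of the 4 storage genes was called in limma between larval genotypes. The median of the 4 genes on an array ranged from 0.66 to 0.99 in su(Hw)/Df, from 0.15 to 0.84 in su(Hw)/+ and from -0.40 to 0.30 in Df/+. Its part in the Yp3 values was not tested. Of the wing disc markers, 2 of 11 were called in su(Hw)/Df, 2 of 11 in su(Hw)/+ and 2 of 10 in Df/+ larvae, a share near or below that of all probes. They were dpp (0.79, 0.65 and 0.59, higher) and ci (-0.41, -0.62 and -0.83, lower).

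In wing discs both Mst probes and the probe of Yp3 alone were measured too rarely for a test. Mst87F, the Mst98Ca and Mst98Cb probe and the probe of Yp3 alone each had 3 values in 12 disc arrays, against 12, 12 and 10 in 12 larval arrays. The median testis gene had 11 larval and 3 disc values, whereas the median over all probes was 11 and 7. Of the 34 testis genes with a probe, 2 to 3 could be tested against the pool in a disc genotype, and 0 of 10 disc tests of the list passed in limma, with 0 at an unadjusted p under 0.05. A pattern of 12 larval and at most 3 disc values, as Mst87F and the Mst98Ca and Mst98Cb probe had, was found for 3.58% of all probes. Spot intensities were not used here, so a spot without a value has no level here. Yp1 had 6 disc values against 1 larval value, and Yp2 had 7 against 6. Of all probes, 9.66% had 1 or 0 larval values and 32.4% had 6 or fewer.

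**Figure D4:**
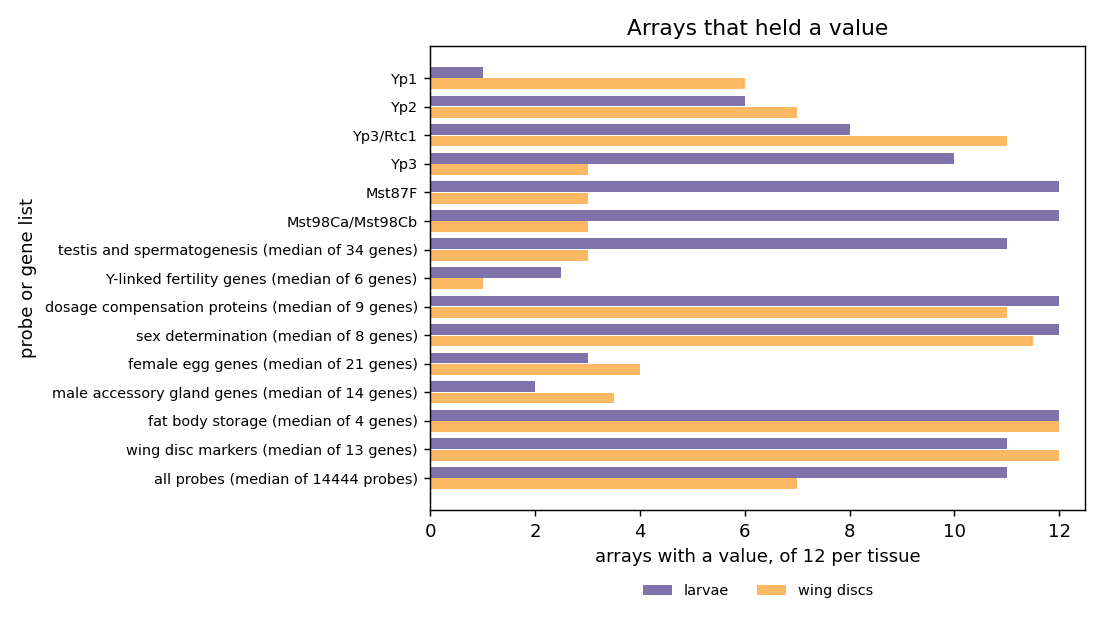
Number of arrays with a value, of 12 per tissue (x axis), for the 6 member probes and, as medians, for the gene lists and all 14444 probes (y axis), with larvae in purple above wing discs in orange. Both Mst probes have 12 larval and 3 disc values, and the dosage compensation proteins have medians of 12 and 11.

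Where discs could be tested, no member probe was called. The probe of Yp3 and Rtc1 averaged 0.06 ± 0.37 for su(Hw)/Df (n = 3, adjusted p = 0.969), 0.21 ± 0.29 for su(Hw)/+ (n = 4, adjusted p = 0.989) and 0.04 ± 0.32 in Df/+ (n = 4, adjusted p = 0.974), with values on both sides of 0 in each genotype. Its difference between su(Hw)/Df and the heterozygotes was -0.06 (SE 0.23, adjusted p = 0.979), with an exact 2-sided permutation p of 0.764 over 165 splits. Yp2 averaged 0.02 ± 0.30 in su(Hw)/+ discs (0.37, -0.14 and -0.16 on replicates 2 to 4, adjusted p = 0.998), beside -0.57 and -0.39 in su(Hw)/Df and 0.50 and -0.34 in Df/+. Yp1 averaged -0.39 ± 0.52 in Df/+ discs (-0.53, 0.19 and -0.83, adjusted p = 0.872), beside -0.62 and 0.56 in su(Hw)/Df discs and a single 0.53 in su(Hw)/+ discs.

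The remaining disc values were single or paired. Mst87F had -0.43 and 0.51 in su(Hw)/Df discs and 0.14 in Df/+ discs. The Mst98Ca and Mst98Cb probe had -0.37 for su(Hw)/Df, -0.25 for su(Hw)/+ and -0.76 for Df/+ discs, and the probe of Yp3 alone had -0.18, 0.13 and 0.12 in that order. None of these can be tested.

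In limma 0 of 1 member probe was called in su(Hw)/Df discs against the pool (0.873% of all 7218 probes called, 545 at an unadjusted p under 0.05), 0 of 2 in su(Hw)/+ (0.595% of 6559, 406) and 0 of 2 in Df/+ (0.163% of 7347, 444). Between genotypes 0 of 1 was called in su(Hw)/Df against the heterozygotes (0.0901% of 5550, 240), against su(Hw)/+ (0.0171% of 5848, 152) and against Df/+ (0.195% of 6144, 272), and in Df/+ against su(Hw)/+ (0.0169% of 5928, 128). The median difference of all probes between su(Hw)/Df and Df/+ discs was itself 0.14. No member had an unadjusted p under 0.05 in discs. The dosage compensation and sex determination genes, with 6 or 7 and 6 to 8 tested per comparison, also had 0 calls in discs, with 0 of 44 and 5 of 46 tests at an unadjusted p under 0.05. The wing disc markers, with 13 tested, had 0 calls and 4 of 91 tests at an unadjusted p under 0.05. Of the 4 fat body storage genes, 1 was called lower in su(Hw)/Df discs, 2 in su(Hw)/+ discs and 0 in Df/+ discs, and 0 were called higher. Fbp1 averaged -2.25 ± 1.01 for su(Hw)/Df, -3.45 ± 1.64 for su(Hw)/+ and -2.09 ± 0.42 for Df/+, and passed in su(Hw)/Df and su(Hw)/+. The apolpp gene averaged -0.78, -1.07 and -0.59 in that order and passed in su(Hw)/+ (adjusted p = 0.0322). Lsp2 (-1.86, -2.70 and -1.66) and Fbp2 (-0.20, -1.46 and -0.96) passed in none. The part of fat body RNA in the Yp values of discs was not tested.

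**Figure D5:**
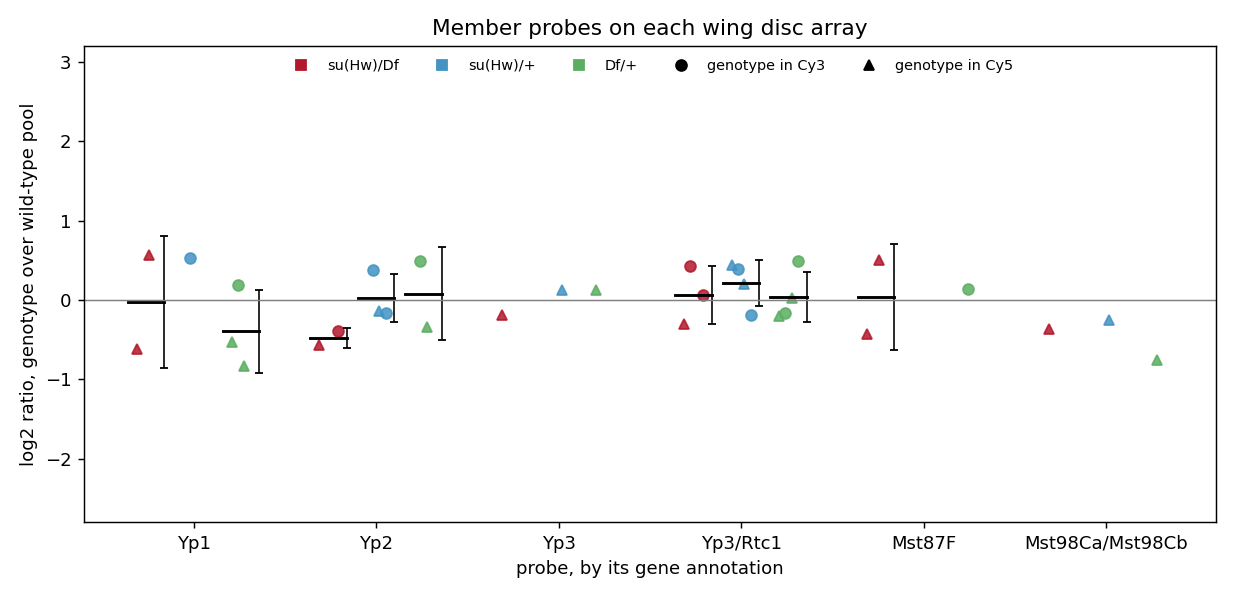
Log2 ratio over the wild-type pool (y axis) of the 6 member probes (x axis) on each wing disc array, on the same scale, colours and symbols as the larval plot; black lines are means and bars are SD where 2 or more arrays had a value. All disc values lie between -0.83 and 0.56, and only the probe of Yp3 and Rtc1 has 3 or more values in every genotype.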

How the data were processed

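The authors hybridised 24 two-colour FL002 (INDAC) long-oligonucleotide arrays, scanned them on an Axon laser scanner, found spots with Dapple and normalized the 12 larval arrays together and the 12 wing disc arrays together with a custom variance stabilization (VSN). The versions of these tools were not given in the sources used here. They deposited 1 log2 ratio of genotype to pool per spot and array, with the dye swaps already turned, as tested on the su(Hw) probe and on the direction of 2772 genotype means, and with spots that failed filters left empty. The deposited values are not centred on 0. Spot intensities were not used here, so signal over background is unknown and the number of arrays limits precision. No value column was left out (0 unused).

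Of 15158 probes, 714 printed in 3 or 4 spots were treated as controls and left out. Of the 14444 analysed, 12531 had 1 gene symbol, 96 had several and 1817 had none. A RefSeq gene table (Release 6 assembly) matched 11914 of them and was used only for names and chromosome arms. Sequences of the probes are not printed here.

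For each tissue, limma 3.58.1 under R 4.3.3 fitted the 3 genotype means of every probe together, moderated the variances and adjusted p by Benjamini-Hochberg over the probes measured on 3 or more arrays of every genotype involved. The exact permutation tests and summaries used Python 3.11.15, pandas 2.3.3, numpy 2.4.6 and scipy 1.17.1. On simulated larval data the fit of su(Hw)/Df against the pool called 92% of probes changed by 1 log2 unit, among 9554 probes. The changed probes all had values on 12 arrays, and the simulated noise was normal and held no dye effect. The 92% therefore does not cover probes with missing values or a dye gap, such as Yp3, or the comparisons between genotypes. The comparisons of su(Hw)/Df with each heterozygote alone, and the counts of probes whose arrays do not overlap, were added after the values were seen. The members and gene lists were chosen with earlier results of these data known. Lists took, for a gene on more than 1 probe, the probe with most values. Named genes are every member probe, up to 4 genes per list and comparison with the largest change among those that passed, and the 3 genes most like a member over 12 arrays. A few more (Mst98Cb, bol, betaTub85D, twe, mle, msl-3 and the fat body genes that did not pass) were chosen after their values were seen. Replicate numbers do not pair the samples: arrays of 1 number share the dye orientation, and the deviations of same-numbered arrays correlated at -0.03 to 0.54 in larvae and -0.12 to 0.62 in discs.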

Additional observations from a re-analysis of the deposited data

Results flagged for a closer look

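In larvae, Mst87F on su(Hw)/+ replicate 3 had a log2 ratio of -2.19, far from the other arrays of that genotype at -1.39, -1.34 and -1.42. Of the 10 member groups with 4 values this was the only 1 that stood apart in this way, and chance alone marks about 1 in 20 such groups. Without this array the mean of Mst87F in su(Hw)/+ larvae was -1.38. The same array had the lowest testis list median, -1.60.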

How the results depend on the processing

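Larval counts of member probes called moved as follows. With the dye as a covariate there were 2 in Df/+ against the pool, 2 in su(Hw)/Df against the heterozygotes, 2 in su(Hw)/Df against su(Hw)/+ and 1 in su(Hw)/Df against Df/+, where 1, 1, 1 and 0 were called as deposited. With the replicate block, which is not a pairing here, there were 2 in su(Hw)/Df against the heterozygotes and 1 in su(Hw)/Df against Df/+. Centring each array gave 1 in su(Hw)/Df against Df/+. The count in su(Hw)/Df against the heterozygotes was 0 with a minimum of 2 values and 0 without moderation. Leaving out 1 array gave 0 to 2 in Df/+ against the pool, 2 to 3 in su(Hw)/+ against the pool, 0 to 1 in su(Hw)/Df against the heterozygotes and 0 to 1 in su(Hw)/Df against Df/+. It gave 1 to 1 in su(Hw)/Df against the pool and 1 to 1 against su(Hw)/+, and 0 to 0 in Df/+ against su(Hw)/+ and in all disc comparisons. The 2 in su(Hw)/+ against the pool arose where Yp3, with 3 values there, no longer had the values needed for a test. Where tested, it stayed called (limma adjusted p = 0.0145 to 0.0456). The causes of the other moves were not tested.

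Directions reversed only for differences that were never called. The Yp3 and Rtc1 probe in su(Hw)/Df against Df/+ larvae was -0.0454 centred, -0.0769 with dye and -0.0925 with the block, and ranged from -0.0925 to 0.13 with 1 array left out. In discs it was -0.11 in Df/+ against the pool without the arrays under 50% of probes (-0.11 to 0.12 with 1 array left out), and -0.0173 centred and -0.0019 with dye in su(Hw)/Df against Df/+ (-0.0568 to 0.17). Against the heterozygotes it ranged from -0.13 to 0.0119. Yp2 in su(Hw)/+ discs was -0.0423 with dye and -0.0652 with the block. The Mst98Ca and Mst98Cb probe ranged from -0.28 to 0.17 in Df/+ larvae against the pool and from -0.44 to 0.0154 in su(Hw)/Df against Df/+. Taking the median of spots changed nothing, since each probe had 1 spot.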
